A study of Mus musculus with 6 samples.

Results

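Usp17la and Arg2 are a pair of mouse genes that were picked because both were high on 1 array of homozygous knock-in embryonic stem (ES) cells and low on the other arrays. They are 2 of the 18194 genes with a probe set of their own, and 3 of the 45101 probe sets on each array carried 1 of these symbols as their only gene symbol: 1 for Usp17la (1420773_at) and 2 for Arg2 (1418847_at and 1438841_s_at). Because the level on every array entered that choice, the levels of both genes are given as a description and were not tested. The samples were ES cells of 3 genotypes with 2 arrays each: NcGFP ki/ki, with the knock-in on both alleles, NcGFP ki/+, with it on 1 allele, and wild type W4. The labels do not spell out NcGFP or say how many clones stand behind a genotype, and all cells were grown in serum with the cytokine LIF on plates labelled EMFI. Per the study's design text, the 2 arrays of a genotype come from independent experiments. All levels are log2 of the intensities the authors normalized with GCRMA, in which the lowest intensity of any array was 5.46 and array medians lay between 49.97 and 53.3.

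A small share of ES cells in culture passes for a time into a state that carries transcripts of the 2-cell embryo, the stage at which the mouse genome is switched on. These cells are known for the Zscan4 and Tcstv families, the homeobox gene family of Dux, transcripts started in MERVL retroviral elements and a drop in OCT4 protein. Usp17la encodes DUB-1, a ubiquitin-specific protease first described as a cytokine-induced gene of blood cells, and lies in a cluster of near-identical copies. Arg2 encodes the mitochondrial arginase, which splits arginine into ornithine and urea.

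Usp17la lies on chr7:104857016-104862667 (GRCm38.p6, from RefSeq), in the same cluster as Usp17lb at chr7:104840257-104842583 and Usp17le at chr7:104767961-104777470. The copies Usp17lc and Usp17ld lie farther off on the same chromosome, at chr7:103416696-103419174 and chr7:103250086-103252505. RefSeq's promoter table for GRCm38.p6 was matched for Usp17la, Usp17lb, Usp17lc and Usp17ld. Usp17le and Arg2 were not among the matches. A stretch of 90 bases is shown to let a reader see how alike the copies are in front of the gene. It runs from base 110 to base 21 before the annotated start of Usp17la (chr7:104856906-104856995, plus strand), and for the other copies it is the aligned stretch, at chr7:104842589-104842678 (minus strand) for Usp17lb, chr7:103416544-103416633 (plus strand) for Usp17lc and chr7:103252590-103252679 (minus strand) for Usp17ld. Capitals mark the 6 letters TATAAA, or TTTAAA at the same place in Usp17la.
Usp17la: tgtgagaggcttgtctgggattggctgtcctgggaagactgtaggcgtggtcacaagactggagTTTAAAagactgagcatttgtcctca
Usp17lb: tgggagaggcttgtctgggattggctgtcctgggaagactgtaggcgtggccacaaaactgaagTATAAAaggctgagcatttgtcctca
Usp17lc: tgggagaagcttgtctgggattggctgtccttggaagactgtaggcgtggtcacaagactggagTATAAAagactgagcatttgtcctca
Usp17ld: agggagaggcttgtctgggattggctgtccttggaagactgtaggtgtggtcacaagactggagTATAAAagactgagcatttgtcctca

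Over these 90 aligned bases the copies were 93.3% (Usp17lb), 95.6% (Usp17lc) and 94.4% (Usp17ld) identical to Usp17la. The marked letters begin 46 bases before the annotated start of Usp17la, and 31, 88 and 110 bases before those of Usp17lb, Usp17lc and Usp17ld, so the annotated starts differ more than the sequence does. Searched on both strands over the 250 bases before the start, TATAAA stood in 12.4% of 32851 promoters, and TTTAAA, which reads the same on both strands, in 12.1%. Of the 30 promoters of genes in the 2-cell-like list described below, 11 held TATAAA (36.7%), 3 of them the Usp17l copies shown. Of the 5 promoters that belong to list genes standing apart in ki/ki replicate 1, 0 held it. A match of 6 letters is a description of the sequence only.

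Usp17la was at 9.98 and 4.06 in ki/ki replicates 1 and 2, at 5.19 and 5.77 in ki/+ replicates 1 and 2, and at 5.10 and 5.07 in wild type replicates 1 and 2. The array of ki/ki replicate 1 thus stood alone, 4.21 above the next highest array, ki/+ replicate 2, an 18.5-fold difference in intensity (1011 against 54.7). The other ki/ki array was the lowest of all 6, so the ki/ki arrays lay on opposite sides of the ki/+ and wild type arrays. In order of level, ki/ki replicate 1 was followed by ki/+ replicate 2, ki/+ replicate 1, the wild type arrays and ki/ki replicate 2. In that order ki/+ replicate 1 and both wild type arrays lay closer together than the standard deviation of the ki/+ arrays. The genotype means were 7.02 ± 4.19 in ki/ki, 5.48 ± 0.41 in ki/+ and 5.09 ± 0.02 in wild type (SD, n = 2 each). Within its array, Usp17la was above 92.7% of all probe sets in ki/ki replicate 1 and above 19.6% to 50.6% in the other 5 arrays. These are bulk cultures, so few cells with much of a transcript and many cells with a little cannot be told apart.

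The first Arg2 probe set, 1418847_at, was at 6.72 and 4.01 in the ki/ki arrays, 4.36 and 4.48 in the ki/+ arrays and 4.31 and 4.44 in the wild type arrays. It had the same array highest, the same next and the same lowest as Usp17la, with a gap of 2.24 above ki/+ replicate 2 (4.72-fold, 105 against 22.3 in intensity). It was above 65.3% of all probe sets in ki/ki replicate 1 and above 18.6% to 26.0% in the other 5 arrays. At such low levels the fold is uncertain, and ki/+ replicate 2 (4.48) and wild type replicate 2 (4.44) were close. Its other 5 values spanned 0.48, against 1.71 for Usp17la. The second Arg2 probe set, 1438841_s_at, was at 5.45 and 3.12 in the ki/ki arrays, 2.92 and 3.14 in the ki/+ arrays and 3.27 and 2.96 in the wild type arrays. This probe set passed a log2 of 4 on ki/ki replicate 1 alone and so did not pass the filter used below (log2 above 4 on at least 2 arrays). It too was highest in ki/ki replicate 1, but its other 5 values, between 7.59 and 9.66 in intensity, lay near the lowest of all arrays, so the gap of 2.18 gives no measured fold and the order of those 5 arrays cannot be read. The genotype means of 1418847_at were 5.36 ± 1.92 in ki/ki, 4.42 ± 0.08 in ki/+ and 4.37 ± 0.09 in wild type, and those of 1438841_s_at were 4.29 ± 1.65, 3.03 ± 0.15 and 3.12 ± 0.22 in the same order (SD, n = 2 each).

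**Figure D1:**
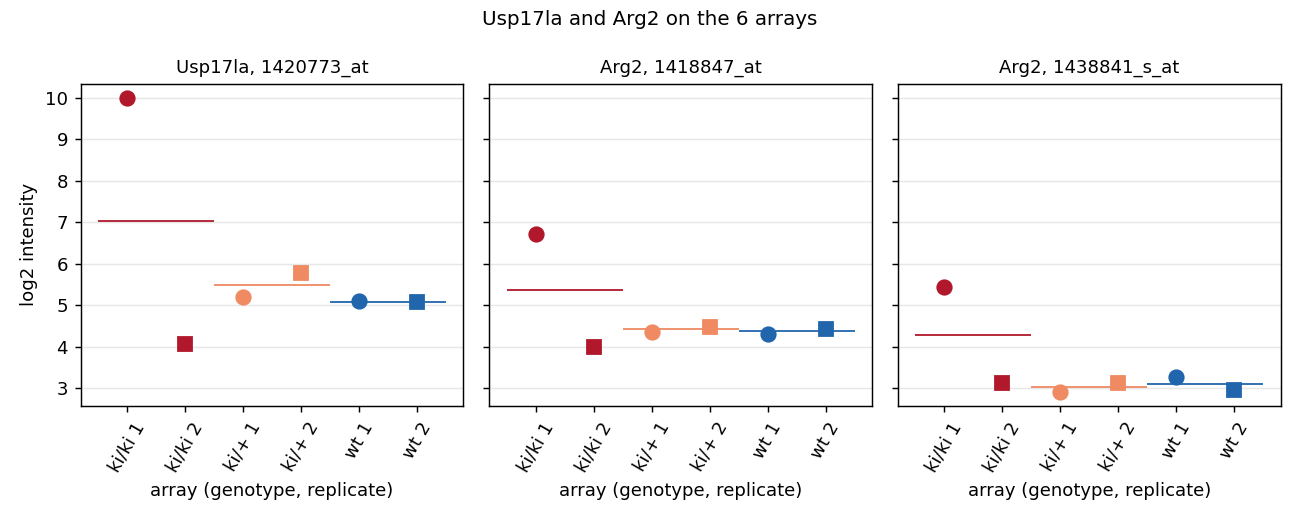
Log2 intensity (y axis) of the 3 probe sets of Usp17la and Arg2 on each array (x axis), with a horizontal line at each genotype's mean of 2 arrays. In every panel ki/ki replicate 1 stands above all other arrays, by 4.21, 2.24 and 2.18.

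Both members were among the transcripts farthest apart on that array. With each of 16706 genes represented by its brightest probe set that passed the filter, 58 genes, or 0.347%, were over 1 above every other array in ki/ki replicate 1. By the size of that gap Usp17la ranked 2 and Arg2 10. Since the genes were picked for this, their ranks carry no weight as evidence. For comparison, 243 genes (1.45%) stood over 1 above every other array in ki/ki replicate 2, 17 (0.102%) in ki/+ replicate 1, 6 (0.0359%) in ki/+ replicate 2 and 0 in either wild type array. Of the 58 genes apart in ki/ki replicate 1, 34 (58.6%) had ki/+ replicate 2 as the next highest array, as had Usp17la and the first Arg2 probe set.

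**Figure D2:**
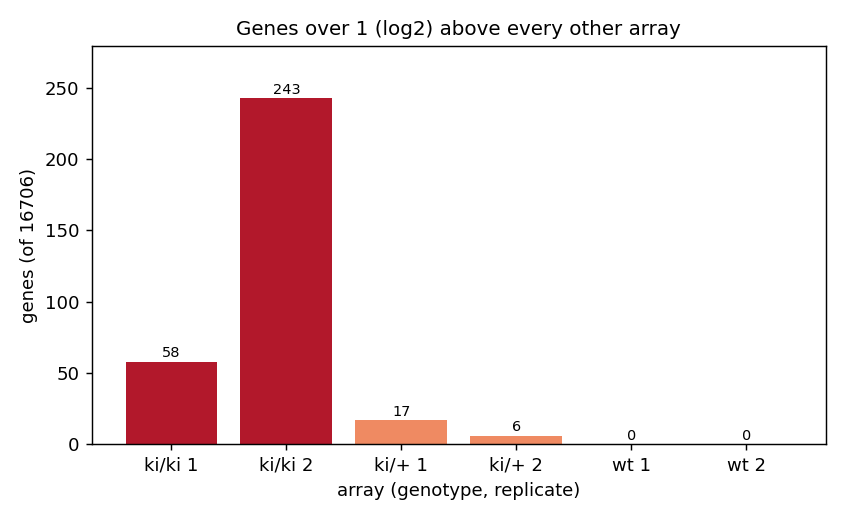
Number of genes, out of 16706, whose log2 intensity on an array lies over 1 above that on every other array (bars, y axis) for each of the 6 arrays (x axis). The bars read 58 and 243 for the ki/ki arrays, 17 and 6 for the ki/+ arrays and 0 for both wild type arrays.

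A list of 60 genes known from 2-cell-like cells, which leaves out both members, was read on the same arrays to check the label. Of these, 26 had a probe set of their own and 21 passed the filter. In ki/ki replicate 1, 14 of the 21 were at their highest level, against 15.6% of all genes, and 6 stood over 1 above every other array, against 0.347% of all genes. None of the 21 stood apart upwards on any of the other 5 arrays. Since the pair was chosen for being high on this array, and genes of this state are known to be expressed together, the list is no independent support.

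The homeobox gene Obox6, of a family expressed in oocytes and early embryos, was at 10.15 and 4.68 in the ki/ki arrays, 6.02 and 6.57 in the ki/+ arrays and 5.81 and 5.89 in the wild type arrays. It had the array order of Usp17la at both ends. The transcript AF067061 was at 10.43 and 6.14 in the ki/ki arrays, 5.79 and 6.64 in the ki/+ arrays and 6.43 and 6.26 in the wild type arrays, and AF067063 was at 6.33 in ki/ki replicate 1 and at most 4.90 elsewhere. Pramel6 and Pramel7, members of a leucine-rich repeat family active in the early embryo, were at 8.55 and 8.39 in ki/ki replicate 1, at 3.90 and 4.23 in ki/ki replicate 2, and at most 5.85 and 5.01 elsewhere. For both, wild type replicate 1 and not ki/+ replicate 2 was next highest. The nuclear body gene Sp110 completed the 6 genes with a gap of 1.04. The zinc finger gene Zfp352, known for its high level in 2-cell embryos, missed that gap: it was at 6.54 and 5.81 in the ki/ki arrays, 5.64 and 5.60 in the ki/+ arrays and 5.62 and 5.78 in the wild type arrays.

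The filter left out 5 genes of the list, and 4 of them were high on ki/ki replicate 1 alone. The 2-cell gene Tcstv1 was at 8.34 and 3.57 in the ki/ki arrays, 3.31 and 3.94 in the ki/+ arrays and 3.47 and 3.46 in the wild type arrays. Its relative Tcstv3 was at 5.56 and 3.04 in the ki/ki arrays, 3.65 and 3.44 in the ki/+ arrays and 3.24 and 3.22 in the wild type arrays. Tdpoz1, of a family expressed in early embryos, was at 5.37 in ki/ki replicate 1 and at most 3.71 elsewhere, and the preimplantation embryo gene Ubtfl1 was at 5.31 and at most 3.19 elsewhere. The fifth, Duxf3, a gene of the Dux family, was at 3.80 and 3.52 in the ki/ki arrays, 3.69 and 3.47 in the ki/+ arrays and 3.56 and 3.55 in the wild type arrays, so this probe set stayed near the bottom of all arrays. A probe set that Duxf3 shares with other genes (1453700_s_at) did pass the filter and was highest in ki/ki replicate 1, at 5.25 against 4.54 to 4.80 elsewhere. These 4 genes exceeded a log2 of 4 on ki/ki replicate 1 alone, so they are given as values and are not counted with the 6 above.

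Of the probe sets annotated to several genes at once, 11 held a symbol of the list, and 7 of these passed the filter. Of those 7, 5 stood over 1 above every other array in ki/ki replicate 1, against 0.287% of all 37950 probe sets that passed. A probe set whose 6 symbols include 4 of the Zscan4 family (1457033_at) was at 11.33 and 4.78 in the ki/ki arrays, 5.10 and 7.22 in the ki/+ arrays and 5.09 and 5.02 in the wild type arrays. Here ki/+ replicate 2 stood visibly above the remaining 4 arrays as well. On ki/ki replicate 1 the brightest of the 11 was 1443961_at, with 7 symbols, at 12.50 and 5.63 in the ki/ki arrays, 5.87 and 7.76 in the ki/+ arrays and 6.25 and 6.26 in the wild type arrays. Both probe sets shared by the Usp17la copies Usp17lc and Usp17ld were highest in ki/ki replicate 1, by 1.12 (1422229_at, at a log2 of 4.85, which did not pass the filter) and 1.03 (1450547_x_at, at 5.24). How far the Usp17la probe set also reads these copies was not tested. A probe set shared by the translation factor gene Eif1a and its relatives (1427479_at) was at 8.57 in ki/ki replicate 1 and between 5.02 and 5.98 elsewhere, while Eif1a's own brightest probe set stayed between 11.32 and 11.61 on all 6 arrays.

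**Figure D3:**
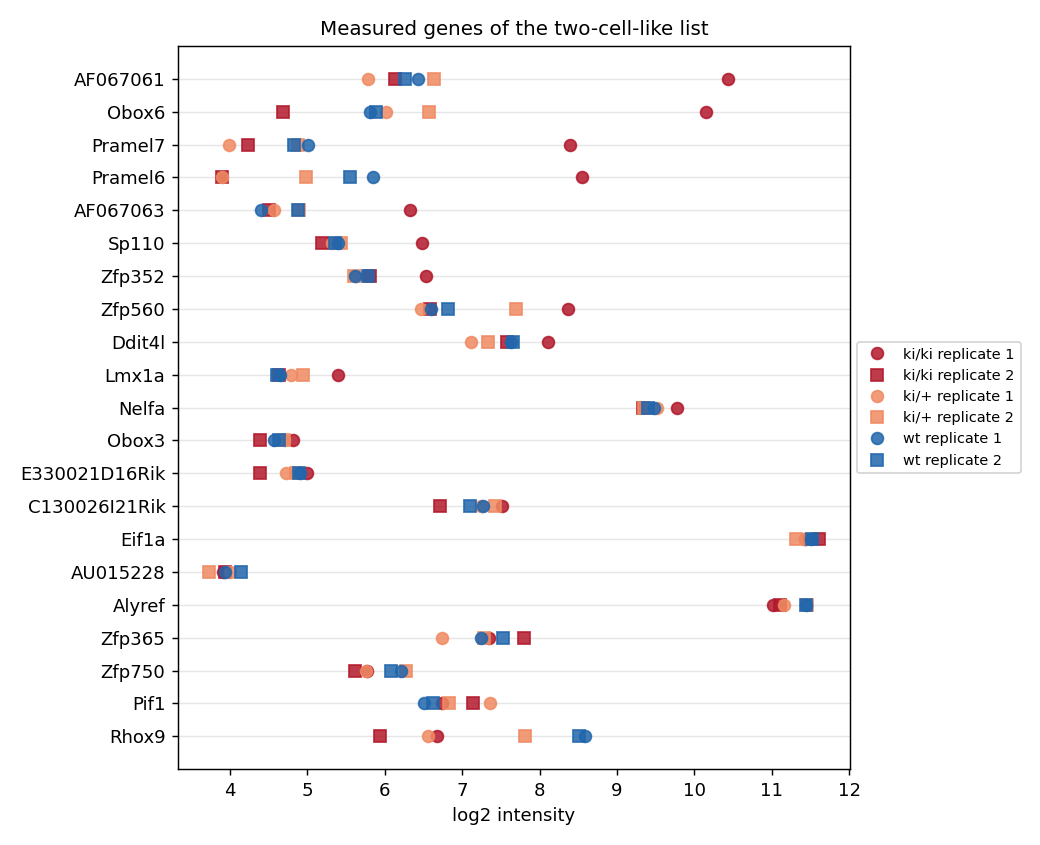
Log2 intensity (x axis) on each of the 6 arrays (points) for the 21 measured genes of the 2-cell-like list (rows), ordered by how far ki/ki replicate 1 lies above the highest other array. In the top 6 rows, AF067061, Obox6, Pramel7, Pramel6, AF067063 and Sp110, ki/ki replicate 1 is over 1 above every other point.

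Between genotypes, limma called 0 of the 21 list genes at an adjusted p of 0.05 in each of the 3 comparisons, as it called 0% of all 37950 probe sets, and no other tool was run. At an unadjusted p under 0.05 there was 1 list gene in each comparison, against 8.94% of all probe sets for ki/ki minus wild type, 10.5% for ki/+ minus wild type and 10.3% for ki/ki minus ki/+. The list's median difference was 0.20 for ki/ki minus wild type (all genes -0.0096), -0.11 for ki/+ minus wild type (all genes 0.027) and 0.15 for ki/ki minus ki/+ (all genes -0.049). These comparisons share arrays. Without ki/ki replicate 1 the list's medians turned to -0.19 for ki/ki minus wild type and -0.20 for ki/ki minus ki/+.

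The gene with the smallest p was Rhox9, a gene of the X-linked reproductive homeobox cluster, which did not follow Usp17la. It was at 6.68 and 5.94 in the ki/ki arrays, 6.56 and 7.81 in the ki/+ arrays and 8.59 and 8.51 in the wild type arrays, so all 4 knock-in arrays lay below both wild type arrays. The fitted difference from wild type came to -2.24 in ki/ki (SE 0.42, limma adjusted p = 0.236) and -1.36 in ki/+ (SE 0.42, limma adjusted p = 0.371). The next smallest p values for ki/ki minus wild type belonged to the RNA export gene Alyref (-0.38, limma adjusted p = 0.560) and to Zfp750 (-0.46, limma adjusted p = 0.590). For ki/+ minus wild type they were those of the helicase gene Pif1 (0.54, limma adjusted p = 0.485) and Ddit4l (-0.41, limma adjusted p = 0.551). For ki/ki minus ki/+ they were those of Ddit4l (0.62, limma adjusted p = 0.441), Zfp365 (0.57, limma adjusted p = 0.502) and Zfp352 (0.56, limma adjusted p = 0.509).

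Which ki/ki array was used decided these counts. Each fit that follows holds 1 ki/ki array, so the spread between ki/ki arrays was not measured. The calls describe that array and are no result for the genotype. Ki/ki replicate 1 is also the array on which the pair was picked for being high, so the calls resting on it follow from that choice. Without ki/ki replicate 2, limma called 7 of the 21 genes higher than wild type, against 1.14% of all probe sets, in a fit that takes the lone ki/ki array to vary like the other genotypes. Against wild type they were 4.30 for Obox6, 4.08 for AF067061, 3.47 for Pramel7 and 2.85 for Pramel6. For AF067063, Sp110 and Zfp352 they were 1.69, 1.11 and 0.84. All of these genes but Zfp352 are those already listed as standing apart in ki/ki replicate 1. Set against ki/+, 4 of the 21 were higher, Obox6, AF067061, Pramel7 and Pramel6, against 0.126% of all probe sets. Without ki/ki replicate 1, limma called none of the 21 higher than wild type, against 2.76% of all probe sets, or higher than ki/+, against 8.41%. In this fit Rhox9 was called lower than wild type (-2.61) and Obox6 than ki/+ (-1.61), as were 1.97% and 4.76% of all probe sets. With both ki/ki arrays in the fit, neither gene was called.

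The genes whose pattern over the 6 arrays was most like Usp17la were ranked by Pearson's r over 5222 probe sets of other genes with a range of at least 1. For Usp17la the 10 highest were Obox6 (r = 0.998), the lipid scramblase gene Tmem41b (0.997), the germ cell RNA-binding protein gene Boll (0.994), Sp110 (0.994), the transcriptional coregulator gene Cited1 (0.994), Arg2 (0.993), the water and glycerol channel gene Aqp9 (0.992), the Polycomb inhibitor gene Ezhip (0.991), Cited4 (0.991) and the retinal carrier protein gene Rlbp1 (0.991). Tmem41b was bright on all arrays, at 9.81 in ki/ki replicate 1 and between 8.46 and 8.85 elsewhere. The lowest value among these 10 genes was 3.96 for Boll in ki/ki replicate 2, and the highest 10.15 for Obox6 in ki/ki replicate 1. In these r values ki/ki replicate 1 weighs heavily, and 55 of the 5222 probe sets had an r over 0.95 with Usp17la. Over the 5 arrays without it, the r of the 10 genes with Usp17la lay between 0.863 (Cited4) and 0.997 (Obox6). The 10 were ranked with that array included.

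For the first Arg2 probe set the 10 most alike were the drug efflux pump gene Abcb1a (0.998), D13Ertd608e (0.998), Sp110 (0.997), Usp17la (0.993), Rlbp1 (0.992), BC080696 (0.991), Lonrf3 (0.991), Cited4 (0.990), Boll (0.989) and Tmem41b (0.989). Usp17la and Arg2 being among each other's 10 nearest restates how the pair was chosen. The genes in both groups were Sp110, Rlbp1, Cited4, Boll and Tmem41b. For the second Arg2 probe set the nearest were the phosphatase gene Ptprj (0.998), Gm364 (0.994), Pramel7 (0.994, by a second and dimmer probe set), the transcription factor gene Sox7 (0.993) and the dipeptidase gene Cndp2 (0.993), followed by AF067061, BC080696, Cd3d, D13Ertd608e and Sp110 with r between 0.980 and 0.993. Without ki/ki replicate 1, the r of Usp17la with the first Arg2 probe set was 0.942 over 5 arrays, and with the second it was -0.030. Between the Arg2 probe sets it was 0.972 with that array and -0.244 without it. The second probe set was near the lowest intensities on those 5 arrays, so its r there says nothing about Arg2.

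**Figure D4:**
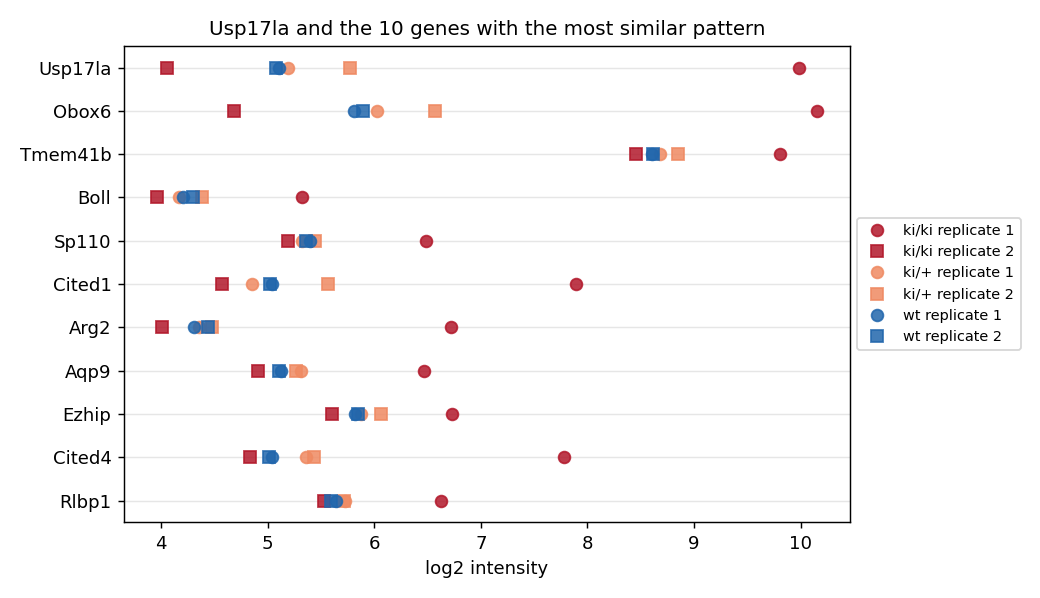
Log2 intensity (x axis) on each of the 6 arrays (points) for Usp17la (top row) and the 10 genes most like it by Pearson's r over the 6 arrays (rows below, in order of r). In each row ki/ki replicate 1 is the rightmost point, and ki/ki replicate 2 the leftmost.

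The genes around Arg2 had other patterns. Among the 10 protein-coding genes nearest to Arg2, which lies on chr12:79130788-79156301, 9 passed the filter and 0 stood apart in ki/ki replicate 1. Pigh, of the glycolipid anchor pathway, was the only one highest there, by 0.030 over ki/+ replicate 2. The vesicle fusion gene Vti1b, whose annotated span (chr12:79156017-79172685) overlaps the end of Arg2, was at 10.46 and 10.76 in the ki/ki arrays, 10.35 and 10.38 in the ki/+ arrays and 10.59 and 10.55 in the wild type arrays. The 10 protein-coding genes nearest to Usp17la are Usp17lb, Usp17le and olfactory receptor genes, and 0 of them passed the filter with a probe set of their own.

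The other genes of arginine and polyamine metabolism were read from a list of 41. Of these, 34 passed the filter, 0 stood over 1 above every other array in ki/ki replicate 1 (0.347% of all genes did), and 7 were at their highest there (15.6% of all genes were). The liver arginase gene Arg1 was at 4.39 and 4.86 in the ki/ki arrays, 4.56 and 4.57 in the ki/+ arrays and 4.28 and 4.20 in the wild type arrays, so it was low throughout and did not peak with Arg2. Ornithine is used by ornithine decarboxylase, encoded by Odc1, which was at 12.96 and 13.13 in the ki/ki arrays, 12.95 and 13.07 in the ki/+ arrays and 12.93 and 12.96 in the wild type arrays. Oat, which turns ornithine towards proline, was at 10.26 and 10.88, 9.69 and 10.46, and 10.06 and 10.10 in the same order. The argininosuccinate lyase gene Asl was lowest in ki/ki replicate 1, at 7.72 and 8.22 in the ki/ki arrays, 8.33 and 8.14 in the ki/+ arrays and 8.32 and 8.24 in the wild type arrays. The probe set of Ass1 did not pass the filter.

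Limma called 0 of the 34 genes in each comparison, with 4 at an unadjusted p under 0.05 for ki/ki minus wild type, 5 for ki/+ minus wild type and 5 for ki/ki minus ki/+. Over all probe sets these shares were 8.94%, 10.5% and 10.3%, so the list's counts lay close to the background. The median differences were 0.0083, 0.051 and -0.024 in that order. The smallest p values for ki/ki minus wild type were those of the arginine transporter gene Slc7a1 (1.30, limma adjusted p = 0.166), the proline and ornithine synthesis gene Aldh18a1 (0.59, limma adjusted p = 0.378) and Ddah1 (1.26, limma adjusted p = 0.426), which breaks down methylated arginines. Slc7a1 and Aldh18a1 were also first for ki/+ minus wild type, at 0.67 and 0.59, followed by Ddah2 at 0.80 (limma adjusted p = 0.380). For ki/ki minus ki/+ they were Slc7a1 (0.63), the arginine transporter gene Slc7a3 (0.59) and the spermidine acetyltransferase gene Sat1 (0.99), with limma adjusted p values between 0.429 and 0.437. Slc7a1 was high in both ki/ki arrays, at 10.39 and 10.29, with 9.92 and 9.50 in the ki/+ arrays and 8.97 and 9.11 in the wild type arrays, which is another pattern than that of Arg2.

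Of the other ubiquitin-specific proteases, 49 were measured. None of them stood apart in ki/ki replicate 1, where 6 were at their highest and 16 at their lowest level. Of all genes, 0.347% stood apart there, 15.6% were highest and 20.4% lowest, so 0 of 49 apart is near the background. Usp36 and Usp42, relatives of Usp17la outside the cluster, were at 8.72 and 8.50 in ki/ki replicate 1, at 8.76 and 8.88 in ki/ki replicate 2, and at most 9.15 for Usp36 and at most 8.995 for Usp42 on the other 4 arrays. Among 33 measured activators and repressors of the 2-cell state, 0 stood apart, 7 were highest and 8 lowest in ki/ki replicate 1, all near those shares. Dppa2, an activator of this state, was at 12.63 and 11.86 in the ki/ki arrays, 11.80 and 11.74 in the ki/+ arrays and 11.90 and 11.80 in the wild type arrays, which put ki/ki replicate 1 0.73 above the next. Its partner Dppa4 was at 11.09 there and between 10.94 and 11.30 elsewhere. The repressor genes Kdm1a and Trim28 were at 11.33 and 13.32 there, and between 11.08 and 11.59 and between 12.97 and 13.43 elsewhere. Limma called 0 genes of either list in any comparison.

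Markers of other cells were read on the same arrays. Of 32 measured feeder fibroblast markers, 0 were highest in ki/ki replicate 1 (15.6% of all genes were), while 19 stood apart upwards in ki/ki replicate 2 (1.45% of all genes did), and none was listed at 0. Their summed intensity was 40547 and 108146 in the ki/ki arrays, 15610 and 28971 in the ki/+ arrays and 42547 and 49213 in the wild type arrays. The sum was thus highest in ki/ki replicate 2. Whether these transcripts came from feeder cells or from the ES cells was not tested. Any link to the low Usp17la level on that array was not tested either. The collagen gene Col1a1 was at 8.73 and 10.83 in the ki/ki arrays, 6.94 and 7.72 in the ki/+ arrays and 9.59 and 9.96 in the wild type arrays. None of 13 primitive endoderm or 10 trophectoderm genes stood apart upwards in ki/ki replicate 1. At their highest there were 3 of the primitive endoderm and 1 of the trophectoderm genes (15.6% of all genes were). The primitive endoderm gene Sox7 was at 6.30 there and at most 5.37 elsewhere. Among the trophectoderm genes 1, Krt8, stood apart downwards there at 6.12, as did 0.198% of all genes. Of 20 ES cell markers, 7 were highest in ki/ki replicate 1 (15.6% of all genes were). Tbx3 alone of them stood apart upwards there (0.347% of all genes did), at 10.39 against at most 8.71 elsewhere. Pou5f1, which encodes OCT4, was at 12.96 and 12.60 in the ki/ki arrays, 13.08 and 12.73 in the ki/+ arrays and 12.89 and 12.85 in the wild type arrays, so its RNA set no array apart. The array's 18S rRNA controls had mean log2 levels of 11.36 and 11.12 (ki/ki), 11.57 and 11.54 (ki/+) and 7.22 and 7.12 (wild type). Usp17la and Arg2 did not follow this split of knock-in from wild type arrays. Rhox9 and Slc7a1 were split between the same arrays, so for them the difference between knock-in and wild type cannot be told apart from it.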

How the data were processed

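RNA of 6 cultures was hybridised to Affymetrix arrays of 45101 probe sets. The deposited intensities are the authors' GCRMA values after quantile normalization, as the design text has it, and the submitters' processing notes name GCRMA and limma with versions not given in the sources used here. A second table holds the same 6 columns (largest difference 0) beside 6 of another series, which were not used. Log2 was taken here. Control probe sets (64) were left out, and 37950 probe sets with a log2 above 4 on at least 2 arrays were tested. Symbols came from the platform annotation: 34958 probe sets had 1 symbol, 932 several and 9211 none listed, and 34897 of the single symbols matched RefSeq, GRCm38.p6.

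Genotypes were compared with limma 3.58.1 in R 4.3.3, in 1 fit of all 6 arrays with 3 residual degrees of freedom, with Benjamini-Hochberg adjustment over all probe sets; p values measure the spread between the 2 experiments per genotype. The number of arrays limits the precision. In simulated data of 37643 probe sets, changes of 2 in ki/ki minus wild type were recovered in 68% of 100 cases and changes of 3 in 87%, with 7 false calls. The simulation gave all genotypes the same spread and each probe set independent noise. In the data most genes standing apart did so on a ki/ki array, so these shares may not hold there. Named were both members, the 3 smallest p of the 2-cell-like and arginine lists where none passed (otherwise the 3 that rose and the 3 that fell most), the 10 genes nearest by r and a stated set of defining genes. Other genes were named after their values were seen: Sp110, the Pramel, AF067061, AF067063, Tdpoz1, Ubtfl1 and Duxf3 transcripts, the genes around Arg2, Krt8, Tbx3, Fgf4 and Tcl1. The members and lists were chosen with earlier results of these data known. Replicate arrays are the labels' replicates. The correlation of replicate differences between genotypes was -0.039 (ki/ki and ki/+), 0.057 (ki/ki and wild type) and 0.14 (ki/+ and wild type), so the replicate numbers were not taken to pair samples.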

Additional observations from a re-analysis of the deposited data

How the results depend on the processing

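The gap of ki/ki replicate 1 over the next array kept its direction for the 3 member probe sets under a further quantile normalization, centring of each array on its median and log2(intensity + 16). With the last it was 3.86 for Usp17la and 1.66 and 1.22 for Arg2, smaller by construction. Likeness changed with the measure: Spearman's rho was 0.829 between Usp17la and the first Arg2 probe set, 0.486 with the second and 0.371 between the Arg2 probe sets, whose Pearson's r was 0.975 after quantile normalization. Leaving out ki/ki replicate 1, chosen after seeing the data, gave 0.942, -0.030 and -0.244 for these pairs. Of the 10 genes nearest to Usp17la, 8 remained after quantile normalization and 0 by Spearman's rho. A filter that asks for 1 array above a log2 of 4 was added after seeing the data. With it, 10 of 25 genes of the 2-cell-like list stood apart in place of 6 of 21, against 0.396% of 16916 genes. The difference was set by the filter: the 4 added genes entered through ki/ki replicate 1 alone. The cause of the other changes was not tested.

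With the replicate block, limma called 0 probe sets in the 3 comparisons, and the block changed no call. With only the 4 arrays of ki/+ and wild type, 1282 of 37950 probe sets passed (372 higher, 910 lower). This took in 3 of 33 activators and repressors and 2 of 49 ubiquitin-specific proteases. It also took in 7 of 32 feeder markers, 1 of 20 ES cell markers and 2 of 13 primitive endoderm genes. Whether any list exceeded the share of all probe sets was not tested. Leaving out each array in turn gave between 0 and 1796 probe sets for ki/ki minus wild type, 0 and 1282 for ki/+ minus wild type, and 0 and 4996 for ki/ki minus ki/+. For ki/ki minus wild type the members called then ran from 0 to 7 of the 2-cell-like list, 0 to 2 of the activators and repressors, of the arginine list, of the ubiquitin-specific proteases and of the trophectoderm genes, 0 to 9 of the feeder markers, 0 to 3 of the ES cell markers and 0 to 1 of the primitive endoderm genes. For ki/ki minus ki/+ they ran from 0 to 4 (2-cell-like), 0 to 2 (arginine), 0 to 6 (ubiquitin-specific proteases), 0 to 31 (feeder), 0 to 1 (ES cell), 0 to 1 (trophectoderm) and 0 to 4 (primitive endoderm). For ki/+ minus wild type, the counts above from the 4 arrays alone are given instead. The lists, in the order named for ki/ki minus wild type, held 21, 33, 34, 49, 10, 32, 20 and 13 measured genes. Without ki/ki replicate 1, 2.76% of all probe sets were called higher and 1.97% lower than wild type. Against ki/+ these shares were 8.41% and 4.76%. Without ki/ki replicate 2, 1.14% were called higher than wild type and 0.126% higher than ki/+. Whether any list exceeded these shares was not tested. Calls appeared only when a ki/ki array was left out, which takes the spread between the ki/ki arrays out of the fit. None appeared in any comparison when a ki/+ or wild type array was left out.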

Other observations

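Beyond the list, further genes stood over 1 above every other array in ki/ki replicate 1, and those named here were chosen after their values had been seen. The largest gap of all 16706 genes was that of BC080696, at 9.22 and 3.56 in the ki/ki arrays, 3.78 and 4.38 in the ki/+ arrays and 3.77 and 3.66 in the wild type arrays. Of the 10 genes with the largest gaps, 4 were on the 2-cell-like list, which made up 21 of all 16706 genes. Usp17la and Arg2 were also among the 10, but they were picked for this gap. As said above, the list is no independent support. Dazl, an RNA-binding protein gene of germ cells, was at 9.03 and 5.50 in the ki/ki arrays, 6.48 and 7.57 in the ki/+ arrays and 5.92 and 5.93 in the wild type arrays. The meiosis genes Hormad1 and Sycp1 were at 6.59 and 6.79 in ki/ki replicate 1 and at most 5.18 and 5.45 elsewhere.

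Levels lowest of all arrays in ki/ki replicate 2, as for Usp17la and the first Arg2 probe set, were found for 27 of the 58 genes (46.6%), for 8 of the 21 measured genes of the 2-cell-like list (38.1%) and for 30.2% of all genes. These shares are not on the same footing. The 58 genes were taken as highest in ki/ki replicate 1, so none could be lowest there, as 20.4% of all genes were. Of the 21 list genes, 14 were highest there, so this holds in part for them. Without ki/ki replicate 2, the ES cell markers Fgf4, Tcl1 and Tbx3 differed from wild type by 1.83, 1.20 and 2.03. Without ki/ki replicate 1, the difference of Tcl1 was -1.12. Each of these fits holds 1 ki/ki array, so only differences are given. The sign for Tcl1 changed with the array that was kept.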
